A study of Mus musculus with 2 samples.

Results

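Mature migratory dendritic cells of mouse MC38 tumors are described here through *Ccr7* and *Fscn1*. The cells were chosen by their own counts: at least 2 UMIs (counted molecules) of each of these genes, and fewer than 2 UMIs of *Cd3d*, *Cd3e* and *Cd3g* together. By this rule 86 of 9911 cells were members, out of 20726 putative cells that both deposited tables list. A cell had to hold at least 10 Sample Tag reads with at least 75% of them on a single tag, 150 to 5000 genes, and at most 20% mitochondrial UMIs.

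Dendritic cells take up antigen in tissue, mature, and travel through lymph to the draining node, where they present peptides to T cells. The chemokine receptor CCR7 guides that route, and fascin, encoded by *Fscn1*, bundles actin in the dendrites of mature cells. Maturation also brings costimulatory and inhibitory ligands to the surface and ends most uptake of new antigen.

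MC38 colon carcinoma cells were grown under the skin of female C57BL/6 mice aged 6 to 8 weeks. From implantation on, 1 group was given vehicle and the other telmisartan, a blocker of the angiotensin II type 1 receptor, at 5 mg/kg daily by gavage. Tumors were taken on day 13, living CD45-positive cells were sorted, and the cells of 5 mice a group were pooled before a single BD Rhapsody capture, with tag 1 on the control pool and tag 2 on the telmisartan pool. With 1 pool a group, differences between mice, tumor size and handling of the pools cannot be told apart from the treatment, no test between the groups exists, and neither a paired analysis nor leaving out a replicate was possible because no replicate was sequenced. All intervals are exact 95% intervals that cover counting error only: Poisson for summed UMIs, Clopper-Pearson for shares of cells, and conditional binomial for ratios.

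Sample Tag reads were poorer in the *Ccr7* *Fscn1* cells than in the other kept cells, which touches every comparison of the pools. Members had a median of 73 tag reads in control and 97 with telmisartan, against 204 and 207 in all other kept cells. The median share of reads on the cell's own tag was 90.9% and 88.1%, against 96.0% and 94.7%. Only 27 of 49 control members (55.1%) and 10 of 37 telmisartan members (27.0%) had at least 90% of reads on their tag, while 79.2% and 76.6% of the other kept cells did. Cells with *Cd209a* were alike in control, with medians of 80.5 and 108 tag reads, own-tag medians of 89.4% and 91.2%, and 47.8% and 59.5% of cells at 90%. A further 22 cells met the rule on *Ccr7*, *Fscn1* and *Cd3* genes but were split between the tags, so they were left out. They make 20.4% (13.2 to 29.2%) of the 108 cells that meet the rule with either kind of tag call. For cells with *Xcr1* or *Clec9a* that share was 9.93% (15 of 151), for cells with *Cd209a* 19.3% (21 of 109) and for macrophages with C1q genes 7.72% (493 of 6390). Split cells had their reads at a median of 69.6% on the leading tag, and 22 of the 941 split cells within the other limits (2.34%, 1.47 to 3.52%) met the rule. At the 90% limit the ratio of telmisartan to control lay on the other side of 0 for 32 of 154 named genes, 7 of which had an interval off 0 without that limit. Of the cells at that limit 3 in control and 3 with telmisartan are high in *Lyz2*, as defined below, and they hold 23.5% and 58.2% of its UMIs, so its values weigh these cells more. Values under that limit are given below for some of these genes only, and the part that mixed tags play was not tested. No doublet caller was used, so doublets of cells from the same pool may remain among the members.

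The members made up 49 of 5078 kept control cells, 0.965% (0.715 to 1.27%), and 37 of 4833 kept telmisartan cells, 0.766% (0.540 to 1.05%). The intervals of the 2 pools overlap. At the 90% tag limit the shares were 0.673% and 0.271%. The tag call alone passed 8738 control and 10222 telmisartan cells, so the gene and mitochondrial limits left out a larger part of the telmisartan pool. With the mitochondrial limit at 10% the shares of members were 1.08% and 0.968%. Median depths of the members were close: 5842 UMIs in control (760 to 18068) and 6285 with telmisartan (1945 to 21508), with medians of 2022 and 1989 genes. Over all kept cells the medians were 9055 and 6584 UMIs, so control cells were deeper as a whole. With every cell thinned to 2000 UMIs and at least 1 UMI of *Ccr7* and of *Fscn1* required, 45 of 4740 control cells and 36 of 4332 telmisartan cells met the rule. Thinning left out 338 and 501 kept cells that were too shallow. Mitochondrial UMIs made up a median of 5.34% and 6.26% of a member's UMIs.

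Cells at the threshold were few. In 7 members *Ccr7* or *Fscn1* stood at exactly 2 UMIs, and summed over these 7 the chemokine gene *Ccl22* was at 7420 CPM (UMIs of the gene among 1000000 of the summed UMIs) and *Cacnb3* at 1524 CPM, each with a UMI in 7 of 7 cells. The pools differ here: the 4 control cells had 13650.2 CPM of *Ccl22* and 72.2 of *Lyz2*, the 3 telmisartan cells 2142 and 5324. The 1 telmisartan cell with 2 UMIs of *Ccr7* had only 203 CPM of *Ccl22*. Just outside, 7 cells with at least 2 UMIs of *Ccr7* and 1 of *Fscn1* had 3238 CPM of *Ccl22* and 627 CPM of *Cacnb3*. Another 4 cells with at least 2 UMIs of *Fscn1* and 1 of *Ccr7* had 3725 CPM of *Ccl22*, and 2 cells with 1 UMI of each had 147 CPM. A larger set of 141 cells had at least 2 UMIs of *Ccr7* and no *Fscn1*, with 1678 CPM of *Ccl22* and 93.1 CPM of *Cacnb3*. The *Cd3* limit left out 1 cell, the gene maximum 1 and the mitochondrial limit 6.

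Of the 5 genes that mark these cells, *Ccr7* (2414 and 3183 CPM in control and with telmisartan) and *Fscn1* (4287 and 3310 CPM) entered the rule and only describe it. *Ccr7* lies at chr11:99144196-99155077 and *Fscn1* at chr5:142960343-142973185 on mouse genome GRCm38. The other 3 genes did not enter the rule. *Ccl22* (chr8:94745590-94751699), a chemokine that draws CCR4-bearing regulatory T cells, was found in all 86 members. It stood at 8315 CPM in control (8010 to 8629) and 6790 CPM with telmisartan (6472 to 7119). Per 10000 UMIs of a cell, its lowest, median and highest values were 1.99, 57.4 and 333 in control and 2.03, 58.5 and 242 with telmisartan. The pools overlap along nearly their whole range, and their median cells lie close together.

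*Cacnb3* (chr15:98630840-98644529), which encodes a beta subunit of voltage-gated calcium channels, had a UMI in 85 of 86 members. Its level was 1308 CPM in control (1189 to 1436) and 942 CPM with telmisartan (826 to 1070), and per 10000 UMIs the lowest, median and highest cells had 1.49, 12.1 and 46.1 in control and 0, 8.42 and 30.9 with telmisartan. The only member without a *Cacnb3* UMI is in the telmisartan pool. *Il12b* (chr11:44400063-44414033) encodes the p40 chain shared by interleukin-12 and interleukin-23 and was found in 17 of 49 control and 20 of 37 telmisartan cells. Its level was 455 CPM in control (386 to 533) and 1338 CPM with telmisartan (1199 to 1489). The median cell had 0 per 10000 UMIs in control and 1.40 with telmisartan, and the highest cells 158 and 100.4. So an *Il12b* UMI was found in some of the members and not in others, while *Ccl22* and *Cacnb3* UMIs were found in nearly all of them. A cell without a UMI of a gene may still carry its transcript. At least 10 *Il12b* UMIs were found in 4 control and 8 telmisartan cells.

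Markers shared by conventional dendritic cells were present. The cytokine receptor gene *Flt3*, on which dendritic cell development depends, had a UMI in 81.4% of members (70 of 86, 71.6 to 89.0%) and 1.26% of C1q macrophages, although the macrophages were deeper (medians of 10702 and 8148 UMIs). C1q macrophages are the 3165 control and 2732 telmisartan cells with at least 3 UMIs of *C1qa*, *C1qb* and *C1qc*, set here as the cells from which stray RNA is most likely to be seen. Thinned to 2000 UMIs, with 3 members and 65 control and 85 telmisartan macrophages left out, *Flt3* was found in 51.8% and 0.365%. *Zbtb46*, a transcription factor of conventional dendritic cells, was found in 61.6% of members (53 of 86, 50.5 to 71.9%) and 1.63% of C1q macrophages, or 31.3% and 0.400% after thinning. *Ccl22* was found in 7.80% of those macrophages and *Cacnb3* in 1.58%. *Cst3*, the cystatin C gene that dendritic cells carry in quantity, stood at 11472 and 11018 CPM in members and 1881 and 1698 CPM in macrophages.

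Markers of the dendritic subsets were uneven in the *Ccr7* *Fscn1* cells. *Xcr1* had 1 UMI in all members together, *Clec9a* had 4 in control and 7 with telmisartan, and *Cd209a* had none. *Irf8*, a factor needed for type 1 conventional dendritic cells, was at 728 and 914 CPM, against 314 and 518 CPM in the cells with *Xcr1*, *Clec9a* or *Cd209a*. *Batf3*, its partner in that lineage, stood at 104 and 87.1 CPM against 18.5 and 34.3. It was the only 1 of 8 type 1 markers at least 2-fold higher in both pools, against 6.83% of all genes. The 6 lower ones were *Naaa*, *Wdfy4*, *Cadm1*, *Itgae*, *Tlr3* and *Ppt1*, against 11.6% of all genes. The 8 had median log2 ratios of -3.35 and -3.60. *Irf4*, linked to type 2 cells, was at 32.7 and 39.6 CPM and *Sirpa* at 95.1 and 131. The lectin gene *Mgl2*, also a type 2 marker, stood at 553 and 166 CPM, and the 10 markers of type 2 cells summed to 853 and 748 CPM. The plasmacytoid markers *Siglech* and *Klk1* had no UMI, and *Tcf4*, which plasmacytoid cells need but other cells also express, was at 134 and 123 CPM.

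Lymphocyte, granulocyte and stromal markers were at or close to 0. All 5 B cell markers and all 4 mast cell and basophil markers had no UMI in either pool. Of 10 T cell markers 6 were at 0, *Foxp3* and the 3 *Cd3* genes, which the rule limits, among them, and the 10 together had 4 UMIs in control and 3 with telmisartan. The natural killer markers summed to 6 and 2 UMIs, the neutrophil markers to 3 and 2, and the tumor and stroma markers to 4 and 4. *Ccl22*, *Cacnb3*, *Flt3* and *Zbtb46*, genes that the rule did not use, go with the label of mature migratory dendritic cells. The former pair belongs to the marker genes above, and the latter pair marks conventional dendritic cells as a whole. Of 8 such shared markers 2 (*Flt3* and *Zbtb46*) were at least 2-fold higher than in the other dendritic cells defined below. Another 2 (*H2-Ab1* and *Itgax*) were lower, against 6.83% and 11.6% of all genes, with median log2 ratios of -0.02 and -0.29. Whether any cell was migrating was not measured.

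Macrophage genes were the exception, and they differ between the pools. All 11 macrophage markers had UMIs in the members, summing to 2039 and 4889 CPM in control and with telmisartan, against 21509 and 21795 CPM in C1q macrophages. *Lyz2*, the lysozyme gene, had the most UMIs of the 11 (996 and 2660 CPM). The complement genes that define the macrophages here did not follow *Lyz2* between the pools: *C1qa* at 59.5 and 47.5, *C1qb* at 315 and 238 and *C1qc* at 199 and 249 CPM. No C1q UMI was found in 26 of 49 control and 20 of 37 telmisartan cells. In 5 control and 5 telmisartan cells *Lyz2* reached at least 10 UMIs per 10000, while the other members had a median of 1.94 and 2.80 and macrophages of 81.9 and 82.0. These 10 cells were deep, with medians of 14365.0 and 16652.0 UMIs against 5794 and 5306 in the rest, and held 18.3% and 28.9% of all member UMIs. Without them the macrophage markers summed to 572 and 585 CPM. Summed, they had 6131 and 4655 CPM of *Ccl22*, but the median cell among them had 57.4 per 10000 in control and only 5.41 with telmisartan, against 56.7 and 68.4 in the other members. At least 3 C1q UMIs were found in 6 control and 5 telmisartan members, and 4 of them in each pool were cells high in *Lyz2*. *Flt3* was found in 3 and 4 of the 5 cells high in *Lyz2*. Whether these cells are doublets or carry stray RNA was not tested. Values without these 10 cells, a setting chosen after the data had been seen, are given below for the results they move most.

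Compared with other dendritic cells of the same pools, the *Ccr7* *Fscn1* cells held more of the maturation program and less of the MHC class II and pattern receptor lists. The other dendritic cells were 87 control and 49 telmisartan cells with at least 2 UMIs of *Xcr1* and *Clec9a* together, and 46 and 42 cells with at least 2 UMIs of *Cd209a*, summed as 133 and 91 cells. They were deeper, with medians of 9157 and 8719 UMIs. Of 27031 genes in the table, 6308 had at least 50 UMIs over these sets. In both pools, 431 of the 6308 (6.83%) were at least 2-fold higher in the *Ccr7* *Fscn1* cells and 733 (11.6%) at least 2-fold lower. The median log2 ratio over all of these genes was -0.21 in each pool. Genes used to choose either set are left out of all counts. Macrophage and monocyte RNA differs between these sets as well. Macrophage markers summed to 2039 and 4889 CPM in members against 7609 and 5310 in the other dendritic cells, with 5 of 11 at least 2-fold lower and 0 higher. Monocyte markers summed to 419 and 827 against 1628 and 1553 CPM, with 5 of 6 lower and 0 higher. The part of this RNA in the genes that stood lower was not tested.

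Of 36 genes of the maturation program with enough UMIs, 33 were at least 2-fold higher in both pools and 0 lower, against 6.83% of all genes. The program's median log2 ratio was 3.36 in control and 3.19 with telmisartan, and its 40 genes summed to 34627 and 31501 CPM against 3382 and 4072. The list holds genes known to mark such cells, so its direction is no independent result. *Birc3*, *Cd83* and *Cdkn1a* were the 3 that did not reach 2-fold in both pools. *Cd83* had log2 ratios of 1.02 and 0.94 and *Cdkn1a* of 0.50 and 0.34 in control and with telmisartan. *Nudt17*, *Tnfrsf4*, *Slco5a1* and *Eno3* had too few UMIs for this comparison.

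**Figure D1:**
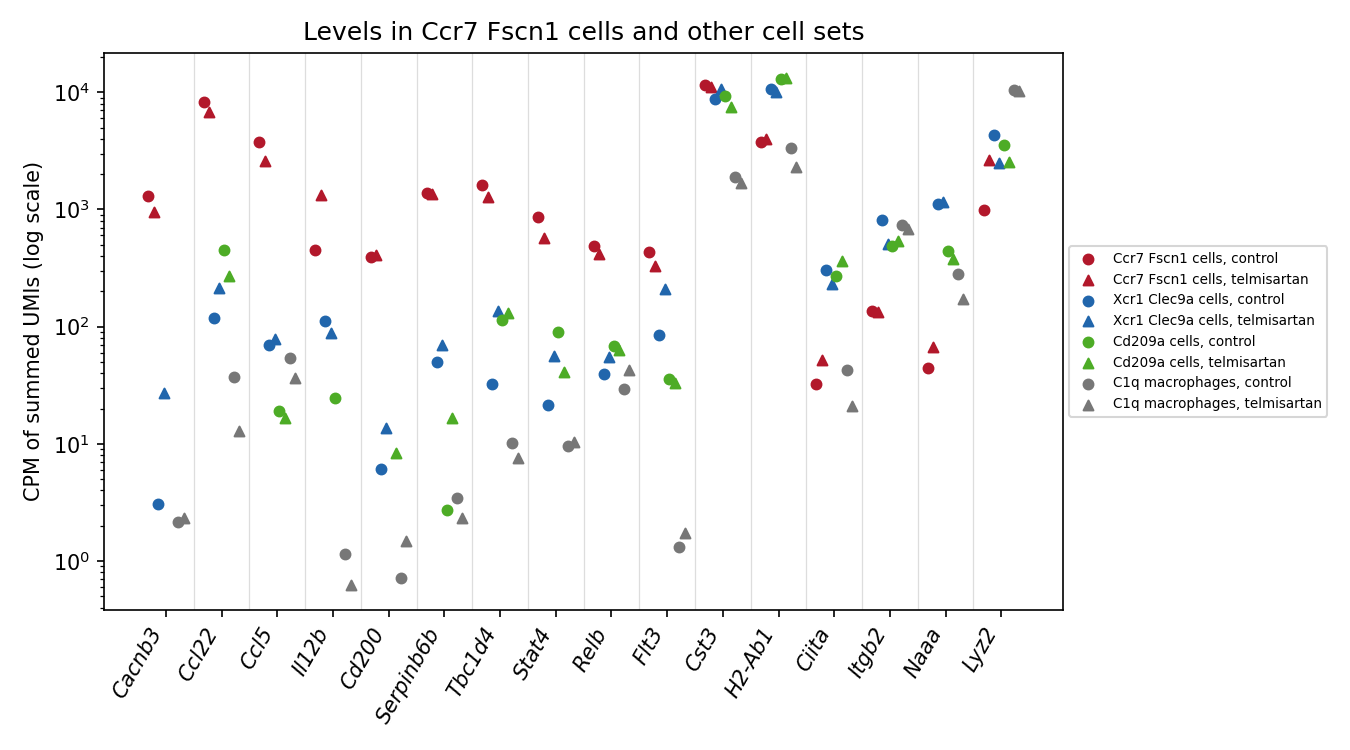
Levels of 16 genes in 4 sets of cells, as CPM of summed UMIs on a log scale, with 1 circle for the control pool and 1 triangle for the telmisartan pool of each set. *Ccr7* *Fscn1* cells stand highest for the genes from *Cacnb3* to *Flt3* and below other dendritic cells for *H2-Ab1* to *Naaa*, and levels of 0 are not drawn.

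The 15 genes that stood highest over other dendritic cells, ranked on the smaller of the 2 pools' ratios among genes with at least 100 UMIs, are led by *Adcy6*, an adenylyl cyclase gene, at 238 and 182 CPM against 2.22 and 2.29. *Gm13546*, a noncoding transcript, followed at 398 and 301 against 2.22 and 4.57 CPM, and *Cacnb3* at 1308 and 942 against 2.22 and 16.0. *Mreg*, which encodes melanoregulin, a protein of organelle transport, was at 294 and 301 against 4.45 and 5.71 CPM. These genes are next to absent from the other dendritic cells of the tumor. *Npr1*, the receptor for atrial natriuretic peptide, was at 265 and 107 CPM in members, with no UMI in the other control dendritic cells and 2.29 CPM in those of the telmisartan pool. *Slc4a8*, a bicarbonate transporter gene, *Arl5c*, a small GTPase gene, and *Poglut1*, which encodes a glucosyltransferase of Notch receptors, complete the less known members of the group, with log2 ratios in control and with telmisartan of 4.53 and 4.27 for *Slc4a8*, 3.90 and 4.70 for *Arl5c* and 4.07 and 3.79 for *Poglut1*.

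*Ccl5* (chr11:83525778-83530518), a chemokine that draws T cells, is another of these 15, at 3793 and 2585 CPM in members and 56.3 and 52.6 in other dendritic cells. Across cells its lowest, median and highest values per 10000 UMIs were 0, 23.3 and 172 in control and 0, 15.6 and 183 with telmisartan, so both pools run from cells without it to cells with well over 100 per 10000. *Il4i1*, a secreted amino acid oxidase gene, was at 232 and 190 CPM against 3.71 and 5.71, and *Cd200*, the ligand of an inhibitory receptor of myeloid cells, at 395 and 408 against 4.45 and 11.4. *Serpinb9*, an inhibitor of granzyme B, stood at 1540 and 1679 CPM against 68.9 and 54.8, and *Serpinb6b*, a related protease inhibitor, at 1379 and 1346 against 37.1 and 48.0. *Fabp5*, a fatty acid carrier gene, was at 2780 and 1540 CPM against 71.9 and 92.5, with lowest, median and highest cells of 0, 16.2 and 138 in control and 0, 11.1 and 75.5 with telmisartan. Only 3 control and 4 telmisartan members lacked a *Fabp5* UMI.

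Chemokine ligands were split. Of 13 with enough UMIs, 2 (*Ccl22* and *Ccl5*) were at least 2-fold higher than in other dendritic cells, and 5 (*Cxcl9*, *Cxcl10*, *Ccl3*, *Ccl4* and *Cxcl2*) at least 2-fold lower, against 6.83% and 11.6% of all genes, with median log2 ratios of -1.11 and 0.64. *Cxcl9*, a ligand of CXCR3 on T cells, was at 624 and 376 CPM in members against 2292 and 913. *Ccl17* (chr8:94810453-94812036), the second CCR4 ligand and a neighbor of *Ccl22* on chromosome 8, did not reach 2-fold, at 1929 and 1473 against 1147 and 944 CPM. In macrophages it was at 107 and 30.5 CPM. *Ccl17* was found in 34 of 49 control and 25 of 37 telmisartan cells, fewer than *Ccl22*.

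*Ccr1* (29.7 and 75.2 against 229.8 and 268 CPM) and *Ccr2* (68.4 and 154 against 431 and 376) were the 2 of 5 chemokine receptors at least 2-fold lower, and 0 were higher, against 11.6% and 6.83% of all genes. *Ccr2* is also a monocyte marker. The list's median log2 ratios were -1.31 and -0.68. *Cxcr4*, the receptor for CXCL12, was at 294 and 297 CPM against 137 and 238. *Ackr3* and *S1pr4* had no UMI.

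Of 20 migration and cytoskeleton genes, 8 were at least 2-fold higher and 3 lower, against 6.83% and 11.6% of all genes, with median log2 ratios of 0.66 and 0.50. *Marcks* and *Marcksl1*, which link actin to the membrane, were both higher, *Marcks* at 1668 and 1671 CPM against 299.5 and 324 and *Marcksl1* at 1064 and 1299 against 113 and 144. *Tbc1d4*, a regulator of Rab GTPases, was at 1617 and 1287 against 54.9 and 134 CPM. The integrins went both ways: *Itga4* was higher (1052 and 946 against 164 and 154 CPM), while *Itgb2* (137 and 135 against 729 and 521), *Itgal* (11.9 and 3.96 against 99.3 and 76.5) and *Itgax* (143 and 115 against 552 and 426) were lower. *Itgax* encodes CD11c, a surface marker often used to sort dendritic cells.

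The next lists overlap with the maturation program, so their counts are not independent of it. Of the genes counted as higher, *Cd80* and *Cd40* of the costimulation list belong to both, as do *Cd274*, *Pdcd1lg2*, *Cd200*, *Il4i1*, *Socs2* and *Tnfrsf9* of the inhibitory and tolerance list and *Relb*, *Traf1* and *Birc2* of the NF-kB list. *Cacnb3*, *Marcksl1* and *Tbc1d4* of the migration list do too. So do all higher genes of the chemokine ligand list (*Ccl22* and *Ccl5*) and of the cytokine list (*Il12b* and *Il15*). Of 8 costimulation genes 4 were at least 2-fold higher and 0 lower, against 6.83% and 11.6% of all genes, with median log2 ratios of 1.06 and 0.98. *Cd80* was at 606 and 419.6 CPM against 193 and 206, *Cd40* at 363 and 467 against 70.4 and 58.3, *Tnfsf9*, the ligand of 4-1BB, at 282 and 550.3 against 130.5 and 142, and the lipid-presenting *Cd1d1* at 65.4 and 166 against 16.3 and 14.9. *Cd86* did not reach 2-fold (630.2 and 503 against 356 and 398). *Tnfsf4*, the OX40 ligand gene, had few UMIs in members (74.3 and 59.4 CPM) and next to none in other dendritic cells (0.741 and 0 CPM), and *Cd70* was alike (29.7 and 27.7 against 1.48 and 0).

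Of 11 inhibitory and tolerance genes 8 were at least 2-fold higher and 2 lower, against 6.83% and 11.6% of all genes, with median log2 ratios of 2.15 and 2.23. *Cd274*, which encodes PD-L1, was at 901 and 709 CPM against 202 and 289, and *Pdcd1lg2*, which encodes PD-L2, at 327 and 428 against 131 and 88.0. *Socs2*, a brake on cytokine receptors, stood at 488 and 451 against 43.0 and 28.6 CPM, *Pvr*, a ligand of TIGIT and CD226, at 160.5 and 226 against 53.4 and 103, and *Fas* at 59.5 and 91.1 against 12.6 and 5.71. The lower pair was *Lgals9* (23.8 and 35.6 against 139 and 119) and its partner *Havcr2*, which encodes TIM-3 (23.8 and 15.8 against 162 and 162). *Ido1*, a tryptophan-degrading enzyme often tied to tolerance, had no UMI in either pool.

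NF-kB genes stood high as well: 10 of 17 were at least 2-fold higher and 0 lower, against 6.83% and 11.6% of all genes, with median log2 ratios of 1.20 and 1.21. *Relb*, the subunit of the noncanonical pathway, was at 488 and 416 CPM against 47.4 and 58.3, and *Map3k14*, which encodes the kinase NIK that starts that pathway, at 348 and 202 against 61.5 and 62.8. *Nfkb1* (856 and 720.5 against 277 and 260.5), *Nfkb2* (137 and 162 against 30.4 and 46.8) and *Rel* (788 and 910.5 against 225 and 377) stood on the same side. *Traf1* and *Birc2*, adaptors of TNF receptors, followed, *Traf1* at 687 and 728 CPM against 102 and 149.7 and *Birc2* at 440 and 348 against 32.6 and 37.7. Of 8 cytokine genes with enough UMIs, 2 (*Il12b* and *Il15*) were at least 2-fold higher and 0 lower, against 6.83% and 11.6% of all genes, and *Il12a* and *Il10* had no UMI. *Stat4*, which carries interleukin-12 signals, was at 856 and 574 CPM against 40.0 and 50.3.

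Antigen presentation by MHC class II was lower at the transcript level. None of 12 class II genes was at least 2-fold higher and 6 were lower (*H2-Ab1*, *H2-DMa*, *H2-DMb1*, *H2-DMb2*, *H2-Oa* and *Ciita*), with median log2 ratios of -1.24 and -1.14, against 11.6% of all genes. *Ciita*, the master regulator of the class II genes, stood at 32.7 and 51.5 CPM against 294 and 284, and *H2-Ab1* at 3796 and 3975 against 11359.8 and 11372. The invariant chain gene *Cd74* was at 7658 and 7237 against 13895 and 14421. *March1*, whose ligase removes class II molecules from the surface, was at 11.9 and 3.96 CPM against 159 and 129. Class I genes stood near the level of other dendritic cells, with median log2 ratios of 0.18 and 0.26. Against 6.83% and 11.6% of all genes, 2 of 15 were higher (*Nlrc5*, the class I transactivator, and *Psme2*) and 2 lower (*Pdia3* and *Calr*, chaperones of peptide loading).

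Of genes for sensing and uptake, 0 of 12 were at least 2-fold higher and 6 lower (*Tlr3*, *Tlr4*, *Cd36*, *Fcgr1*, *Fcgr2b* and *Mrc1*), against 6.83% and 11.6% of all genes, with median log2 ratios of -2.21 and -1.03. *Fcgr2b*, the inhibitory Fc receptor, was at 249.7 and 396 CPM against 1136 and 875, and *Mrc1*, which encodes the mannose receptor, at 38.7 and 55.4 against 170.5 and 120. *Fcgr1* and *Mrc1* are also macrophage markers. The same shares apply to the next lists. Of 13 interferon-gamma response genes 2 were higher (*Irf1* and *Gbp5*) and 3 lower (*Irgm1*, *Cxcl9* and *Ifngr1*), with medians of -1.13 and -0.02. Of 10 type I interferon genes 0 were higher and 4 lower, with medians of -1.64 and -0.99. Immediate-early genes had 2 of 20 higher (*Nr4a3* and *Dusp2*) and 4 lower, with medians of -0.75 and -0.54. In the heat shock list, 0 of 11 were higher and 1 lower (*Hspa5*).

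Some genes of hypoxia and glycolysis and of the cell cycle were lower than in other dendritic cells. The hypoxia and glycolysis list had median log2 ratios of -1.23 in control and -0.61 with telmisartan. Of 17 hypoxia and glycolysis genes 0 were at least 2-fold higher and 7 lower, against 6.83% and 11.6% of all genes, *Ldha* (253 and 309 against 706 and 635 CPM) and the glucose transporter gene *Slc2a1* (38.7 and 55.4 against 194 and 168) among them. Of 15 cell cycle genes 0 were higher and 5 lower, read against the same shares, with median log2 ratios of -1.06 and -1.48. Members with UMIs of both *Mki67* and *Top2a* numbered 4 in control and 3 with telmisartan, and 11 and 9 had at least 1 of them. UMIs of both genes were therefore found in few of the members, and 1 control cell holds 60.9% of the control *Top2a* UMIs.

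The 15 genes lowest against other dendritic cells include *Cd244a*, *Ctnnd2* and *Slc4a7*, which had no UMI in any member, while other dendritic cells had 60.0 and 65.1 CPM of *Cd244a*, 48.9 and 66.3 of *Ctnnd2* and 67.5 and 69.7 of *Slc4a7*. Several of the rest are subset markers. *Itgae*, which encodes CD103, was at 2.97 and 3.96 CPM against 86.0 and 159, *Cadm1*, an adhesion gene of type 1 cells, at 0 and 3.96 against 47.4 and 66.3, and *Naaa*, a lysosomal amidase gene, at 44.6 and 67.3 against 933 and 838. The comparison cells were chosen by genes of the same subsets, so these markers follow from that choice in part. *Plet1* (32.7 and 23.8 against 566 and 537), *Qpct* (11.9 and 3.96 against 214 and 111), *Plac8* (11.9 and 35.6 against 145 and 434) and *Ptpn7* (2.97 and 3.96 against 66.7 and 50.3) were also near 0 in members. *Ifitm6*, *Sept3*, *P2ry6*, *Gpr141b* and *March1* complete the 15.

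With telmisartan, the *Ccr7* *Fscn1* cells differed from control by higher *Il12b*, *Il1rn*, *Il1b*, *Fosb* and *Nr4a* genes and by lower *Tnfrsf9*, *Ifitm1* and *Mt2*, while the maturation program had a median log2 ratio of -0.13. Of all genes, 1902 had at least 50 UMIs in both pools together, from 336383 control and 252595 telmisartan UMIs. Of these, 68 (3.58%) were at least 2-fold higher with telmisartan and 44 (2.31%) at least 2-fold lower, and the median log2 ratio was -0.02. A list's counts are read against these shares. Among macrophage markers 3 of 6 (*Lyz2*, *Apoe* and *Spp1*) were at least 2-fold higher and 0 lower, against 3.58% and 2.31% of all genes. Without the 10 cells high in *Lyz2*, their sums were close between the pools, at 572 and 585 CPM. *Lyz2* is itself in these sums and chose the cells left out, so this closeness follows in part from the choice. The monocyte markers went from 419 and 827 CPM to 124 and 139 without those cells.

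**Figure D2:**
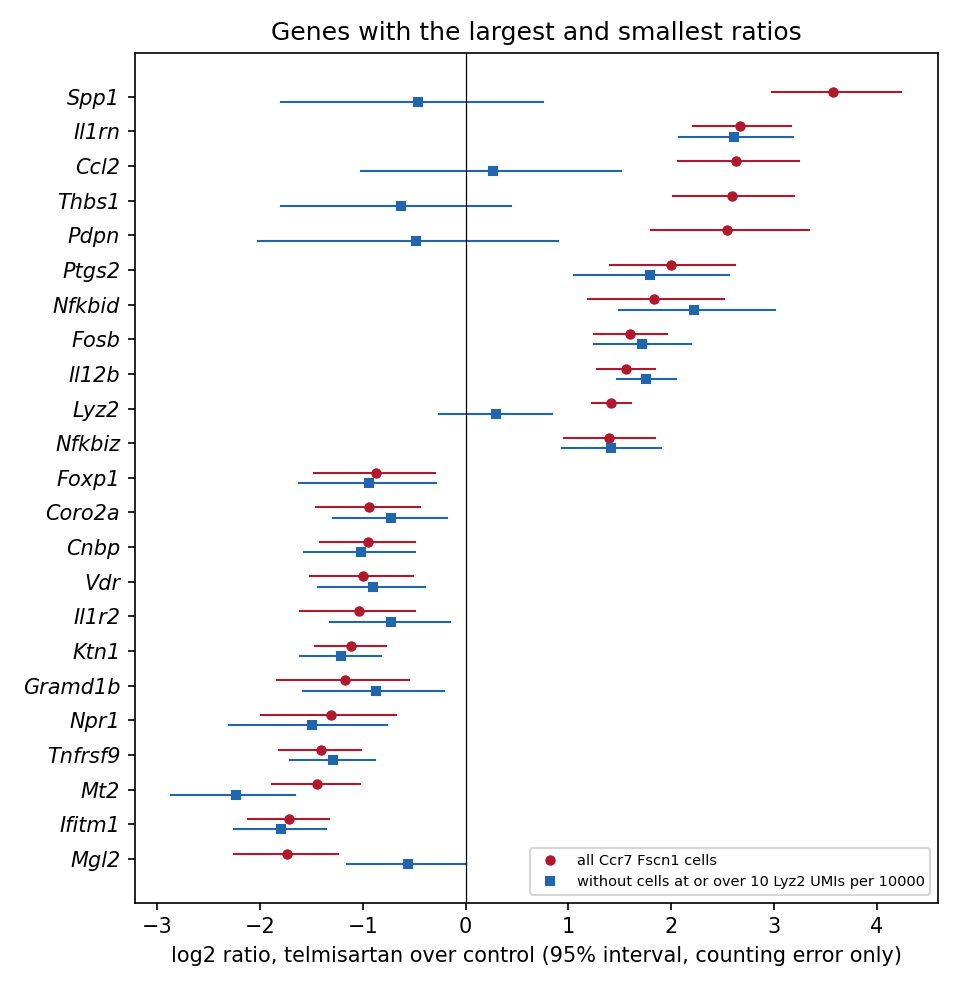
Log2 ratio of telmisartan to control with its 95% counting interval for 11 of the 12 genes with the largest and the 12 with the smallest ratio among those with at least 100 UMIs and an interval off 0, over all *Ccr7* *Fscn1* cells (red) and without the 10 cells high in *Lyz2* (blue). *Spp1*, *Ccl2*, *Thbs1*, *Pdpn* and *Lyz2* have ratios near or below 0 without these cells, whereas most of the other genes keep theirs. *Lyz2* is the gene that chose the cells left out.

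Among genes with at least 100 UMIs and an interval off 0, the largest ratio belongs to *Spp1* (chr5:104435118-104441050), which encodes osteopontin and is a gene of tumor macrophages. Its level was 74.3 CPM in control and 887 with telmisartan (log2 3.58, 2.98 to 4.24). The lowest, median and highest cells had 0, 0 and 6.91 per 10000 UMIs in control and 0, 0 and 45.6 with telmisartan, so most members of both pools have none and 3 telmisartan cells stand above the rest. The 5 telmisartan cells high in *Lyz2* hold 96.0% of the pool's *Spp1* UMIs, and without the 10 cells the ratio was -0.46 (-1.79 to 0.75). *Thbs1* (thrombospondin 1) went from 2.59 to -0.63, *Pdpn* (podoplanin) from 2.54 to -0.49, *Ccl2* (a ligand of CCR2) from 2.63 to 0.27 and *Lyz2* from 1.42 to 0.29. In C1q macrophages *Spp1* was at 3148 and 2141 CPM. *Lyz2* itself chose the cells left out, so its own change follows in part from that choice. The part that RNA of macrophages plays in these 5 ratios was not tested.

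Cytokine genes stood higher with telmisartan, with or without those cells. Of 4 cytokine genes with at least 50 UMIs, 3 (*Il12b*, *Il1b* and *Il1rn*) were at least 2-fold higher and 0 lower, against 3.58% of all genes. All 4 intervals lay above 0, a count for which no share of all genes is given. *Il12b* had 153 UMIs in control and 338 with telmisartan, which is 455 and 1338 CPM (log2 1.56, 1.28 to 1.84). Leaving out the cells high in *Lyz2* gave 1.75 (1.47 to 2.04). The 90% tag limit, with 27 and 10 cells and most telmisartan UMIs in 3 cells high in *Lyz2*, gave a smaller 0.60 (0.13 to 1.06), and single cells hold 33.3% and 24.6% of the *Il12b* UMIs of their pools. The mean over cells of UMIs per 10000 gave *Il12b* 0.71. In C1q macrophages *Il12b* was next to absent (1.15 and 0.630 CPM). The share of cells with a UMI was 34.7% in control (21.7 to 49.6%) and 54.1% with telmisartan (36.9 to 70.5%), intervals that overlap, in members of like depth. After thinning, *Il12b* was found in 25.3% of the 83 members left and in 0.0696% of macrophages.

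*Il1rn* encodes the natural blocker of the interleukin-1 receptor. Its lowest, median and highest cells had 0, 0 and 11.3 per 10000 UMIs in control and 0, 4.55 and 76.7 with telmisartan, and it was found in 21 of 49 control and 28 of 37 telmisartan cells. Summed, it was at 137 and 871 CPM (log2 2.67, 2.21 to 3.16), and leaving out the cells high in *Lyz2* gave 2.61. Macrophages carry it at 799 and 1197 CPM, and the part of their RNA in it was not tested. *Il1b*, the inflammatory counterpart, was at 1124 and 2553 CPM with a ratio of 1.18 (1.00 to 1.37), and of 1.14 without those cells. With the rule lowered to at least 1 UMI each of *Ccr7* and *Fscn1* (56 and 43 cells), *Il1b* was at 0.96. *Ebi3*, the subunit shared by interleukin-27 and interleukin-35, was at 83.2 and 166 CPM (log2 1.00, 0.27 to 1.74), just under 2-fold. At the 90% tag limit its ratio was 2.91. *Ptgs2*, which encodes the prostaglandin enzyme COX-2, stood at 95.1 and 380.1 CPM (log2 2.00, 1.41 to 2.62, 1.79 without the cells high in *Lyz2*). A *Ptgs2* UMI was found in 9 of 49 control and 15 of 37 telmisartan cells, which does not limit how many cells carry the transcript.

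Immediate-early genes respond within minutes to many stimuli. Of 17 with enough UMIs, 4 (*Fosb*, *Nr4a1*, *Nr4a2* and *Nr4a3*) were at least 2-fold higher with telmisartan and 0 were lower, against 3.58% of all genes. Their median log2 ratio was 0.63. Of their intervals 11 lay above 0 and 1 below, without a share of all genes to read them against. *Fosb*, a member of AP-1, was at 288 and 875 CPM (log2 1.60, 1.25 to 1.96), and *Nr4a3*, an orphan nuclear receptor of migratory dendritic cells, at 696 and 1485 CPM (log2 1.09, 0.85 to 1.33). *Nr4a1* was at 110 and 285 CPM (log2 1.37, 0.78 to 1.99) and *Nr4a2* at 125 and 277 (log2 1.15, 0.58 to 1.74). The sum over the list was 8226 and 11473 CPM, and 8194 and 11417 without the cells high in *Lyz2*. *Jun* was the gene with its interval below 0, at 458 and 297 CPM (log2 -0.62, -1.04 to -0.22). C1q macrophages had ratios of 1.39 for *Nr4a3*, 0.74 for *Nr4a1*, 0.90 for *Nr4a2* and 0.49 for *Fosb*, so these genes were higher with telmisartan there too.

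*Nfkbid* and *Nfkbiz*, which encode atypical inhibitors of NF-kB that act in the nucleus, belong to the 12 largest ratios. *Nfkbid* was at 83.2 and 297 CPM (log2 1.83, 1.19 to 2.52), in 19 of 49 control and 25 of 37 telmisartan cells, and *Nfkbiz* at 196 and 515 CPM (log2 1.39, 0.95 to 1.84), in 24 of 49 control and 28 of 37 telmisartan cells. Without the cells high in *Lyz2* the ratios were 2.22 and 1.42. Within the NF-kB list itself, 0 of 15 genes were at least 2-fold apart in either direction, with a median of 0.09. *Tnfaip3*, a feedback inhibitor, was at 270.5 and 396 CPM (log2 0.55, 0.13 to 0.98) and *Nfkbia* at 1308 and 1655 (log2 0.34, 0.14 to 0.54), and *Map3k14* at 348 and 202 (log2 -0.78, -1.29 to -0.30).

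The maturation program held 1 of 34 genes at least 2-fold higher with telmisartan (*Il12b*) and 2 lower (*Tnfrsf9* and *Ankrd33b*), against 3.58% and 2.31% of all genes, with a median of -0.13. The program's 40 genes summed to 34627 and 31501 CPM, and to 37674 and 37878 without the cells high in *Lyz2*. *Tnfrsf9* (chr4:150914562-150946102), which encodes the receptor 4-1BB, had 244 UMIs in control and 69 with telmisartan, 725 and 273 CPM (log2 -1.41, -1.82 to -1.02). Its lowest, median and highest cells had 0, 4.63 and 31.1 per 10000 UMIs in control and 0, 0 and 22.6 with telmisartan, and it was found in 34 of 49 control and 18 of 37 telmisartan cells. A *Tnfrsf9* UMI was thus found in a larger part of the control members, while the cells of the pools overlap in range. Its ligand *Tnfsf9* was at 282 and 550.3 CPM, the opposite direction (log2 0.96, 0.58 to 1.35). In macrophages the same pair had ratios of -0.96 and 0.99. *Ankrd33b* had few UMIs (137 and 63.3 CPM).

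Within that program, several genes of the highest counts stood somewhat lower with telmisartan. *Ccl22* had a log2 ratio of -0.29 (-0.38 to -0.21), and of -0.60 (-0.75 to -0.46) at the 90% tag limit. *Ccl5* had -0.55 (-0.69 to -0.42) and -0.28 without the cells high in *Lyz2*. *Cacnb3* had -0.47 (-0.71 to -0.24), *Stat4* -0.58 (-0.87 to -0.28), *Bcl2l14* -0.60 (-1.03 to -0.17), *Cd80* -0.53 (-0.88 to -0.19) and *Cd274* -0.35 (-0.62 to -0.07). On the other side, *Cd83*, a marker of mature dendritic cells that stabilizes class II molecules, stood at 1076 and 1548 CPM (log2 0.52, 0.31 to 0.73), and *Iscu* and *Marcksl1* had 0.50 (0.08 to 0.92) and 0.29 (0.07 to 0.51), which turn to -0.06 and -0.19 at the 90% tag limit. *Bcl2l14* was at -2.71 and *Cd80* at -1.28 under that limit, further from 0, where 3 cells high in *Lyz2* hold most of the telmisartan UMIs. *Cacnb3* at -0.84, *Stat4* at -0.80 and *Ccl5* at -0.62 were also further from 0 there. *Cd274* at -0.07 and *Cd83* at 0.17 were nearer to 0. Over the 34 genes of the program, 12 intervals lay below 0 and 4 above. The share of all genes with an interval off 0 is not given, so these counts only describe the list.

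Among genes with at least 100 UMIs, *Mgl2* (chr11:70130329-70137550) had the smallest ratio. It encodes a galactose-binding lectin of type 2 dendritic cells and macrophages and was at 553 and 166 CPM (log2 -1.73, -2.25 to -1.24). The lowest, median and highest cells had 0, 0 and 43.2 per 10000 UMIs in control and 0, 0 and 18.2 with telmisartan, and 1 control cell holds 41.9% of the control UMIs. Without the cells high in *Lyz2* its ratio was -0.56 (-1.16 to 0.00), and at the 90% tag limit -4.67, so its size rests on few cells. *Ifitm1*, an interferon-induced membrane gene, was at 883 and 269 CPM (log2 -1.71, -2.12 to -1.33), with -1.80 without those cells. *Mt2*, which encodes a metal-binding metallothionein, was at 648 and 238 CPM (log2 -1.45, -1.89 to -1.03). Its ratio was -2.24 without those cells and -0.83 at the 90% tag limit.

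*Npr1*, another of the 12 smallest ratios, stood at 265 and 107 CPM (log2 -1.31, -1.99 to -0.67), in 31 of 49 control and 13 of 37 telmisartan cells, and is also among the genes highest over other dendritic cells. *Gramd1b*, a cholesterol transporter gene, was at 259 and 115 CPM (log2 -1.17, -1.83 to -0.55), and *Ktn1*, which encodes the kinesin-binding protein kinectin, at 806 and 372 (log2 -1.11, -1.47 to -0.77). *Il1r2*, the decoy receptor of interleukin-1, was at 309 and 150.4 CPM (log2 -1.04, -1.61 to -0.49). *Vdr*, the vitamin D receptor gene, was at 380.5 and 190 CPM, *Cnbp*, which encodes a nucleic acid-binding protein, at 428 and 222 (log2 -0.95, -1.42 to -0.49), *Coro2a*, an actin-binding coronin gene, at 357 and 186 (log2 -0.94, -1.46 to -0.44) and the transcription factor gene *Foxp1* at 262 and 142 (log2 -0.88, -1.48 to -0.30). At the 90% tag limit *Il1r2*, *Vdr* and *Coro2a* had -1.80, -1.72 and -1.72, further from 0. With at least 1 UMI each of *Ccr7* and *Fscn1* as the rule, *Il1r2* had -0.36, and after thinning *Coro2a* had -0.34.

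Chemokine ligands had 3 of 11 genes at least 2-fold higher with telmisartan (*Ccl2*, *Ccl4* and *Ccl7*) and 1 lower (*Cxcl1*), against 3.58% and 2.31% of all genes, with a median of 0.18. *Ccl4* was at 23.8 and 238 CPM (log2 3.32, 2.25 to 4.60) and at 2.13 without the cells high in *Lyz2*, and *Ccl7* went from 2.76 to 0.61. *Cxcl1* rests on 1 control cell with 76.9% of its control UMIs. *Cxcl9* was at 624 and 376 CPM (log2 -0.73, -1.10 to -0.37), and 1 control cell holds 64.3% of its UMIs. With the highest cell of each pool left out its ratio was 0.08, and without cells with 3 or more C1q UMIs 0.53. *Ccl17* was at 1929 and 1473 CPM (log2 -0.39, -0.58 to -0.20), which became 0.09 at the 90% tag limit. Of 3 chemokine receptors with enough UMIs 1 was higher (*Ccr2*, 68.4 and 154 CPM, 1.18 (0.40 to 1.99)), against 3.58% of all genes. For *Ccr2*, 1 telmisartan cell holds 56.4% of that pool's UMIs.

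Uptake genes followed the macrophage markers. Of 6 pattern receptor and uptake genes, 3 were at least 2-fold higher with telmisartan (*Cd14*, *Msr1* and *Fcgr3*) and 0 lower, against 3.58% and 2.31% of all genes. The list summed to 1489 and 2684 CPM, and to 641 and 802 without the cells high in *Lyz2*. *Cd14*, a coreceptor for bacterial lipopolysaccharide, went from 1.24 to 0.17 and *Msr1*, a scavenger receptor gene, from 1.38 to -1.19. In the type 2 dendritic cell markers, *Itgam* and *Ms4a6c* were higher and *Mgl2* lower, of 4 genes, against the same shares of all genes. *Itgam* went from 1.87 to -0.12 without those cells.

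Antigen presentation genes stood near level between the pools. Of 8 MHC class II genes and 13 class I genes, 0 were at least 2-fold higher or lower, with medians of 0.10 and 0.06. *H2-Ab1* was at 3796 and 3975 CPM and *H2-K1* at 2307 and 2462. *Ctss*, the protease that trims the invariant chain, was at 1647 and 2245 CPM (log2 0.45, 0.28 to 0.62), and 0.08 without the cells high in *Lyz2*. The 6 interferon-gamma response genes had a median of 0.24 and the 2 type I interferon genes of 0.16, with 0 at least 2-fold apart. *Irf1* was at 392 and 538 CPM (log2 0.46, 0.10 to 0.81), but -0.67 at the 90% tag limit.

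Of 8 costimulation genes 1 was at least 2-fold higher with telmisartan (*Cd1d1*, 65.4 and 166 CPM, 1.35 (0.57 to 2.16)) and 0 lower. The shares of all genes were 3.58% and 2.31%, and the list's median was 0.39. *Cd1d1* presents lipids to natural killer T cells and was found in 15 of 49 control and 19 of 37 telmisartan cells. Of 8 genes of the inhibitory and tolerance list 0 were higher and 1 lower (*Tnfrsf9*, a gene with roles on both sides), against 3.58% and 2.31% of all genes, with a median of -0.03. *Pdcd1lg2* had 0.39 (-0.01 to 0.78). Of 19 migration genes 0 were at least 2-fold apart, with a median of -0.02. *Actb* stood at 29029 and 26109 CPM and *Itga4* at 1052 and 946.

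The heat shock list and the hypoxia and glycolysis list each had a median near 0, over genes with intervals on either side of it. Heat shock genes had 0 of 9 at least 2-fold apart and a median of 0.00, with *Hspa1b* at 1035 and 657 CPM (log2 -0.65, -0.93 to -0.38) and *Hspa5*, the chaperone of the endoplasmic reticulum, at 241 and 388 (log2 0.69, 0.25 to 1.13). Of 11 hypoxia and glycolysis genes 2 were higher (*Vegfa* and *Hilpda*) and 0 lower, against 3.58% and 2.31% of all genes, with a median of 0.03. *Vegfa* went from 1.25 to 0.61 and *Hilpda* from 1.04 to 0.52 without the cells high in *Lyz2*. Of 4 cell cycle genes 1 was higher, against 3.58% of all genes. This was *Top2a*, at 68.4 and 166 CPM (log2 1.28, 0.52 to 2.08), and its ratio was -1.79 at the 90% tag limit.

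The angiotensin receptor genes *Agtr1a*, *Agtr1b* and *Agtr2* had no UMI in any *Ccr7* *Fscn1* cell, and neither had *Ace*, *Agt* or *Pdk4*. A count of 0 in these pools allows up to about 8.92 CPM in control and 11.9 with telmisartan, taking 3 UMIs as the limit. *Pparg*, the nuclear receptor that telmisartan also binds, had 1 UMI in control and 0 with telmisartan. *Lnpep*, which encodes the angiotensin IV binding peptidase, was at 152 and 206 CPM (log2 0.44, -0.14 to 1.03). Of the lipid genes regulated by PPARs, *Fabp5* had UMIs in most members and stood lower with telmisartan, at 2780 and 1540 CPM (log2 -0.85, -1.03 to -0.68). The ratio was -1.17 at the 90% tag limit. *Fabp4* had 1 and 2 UMIs, *Plin2* was at 65.4 and 55.4 CPM and *Cpt1a* at 44.6 and 31.7.

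**Figure D3:**
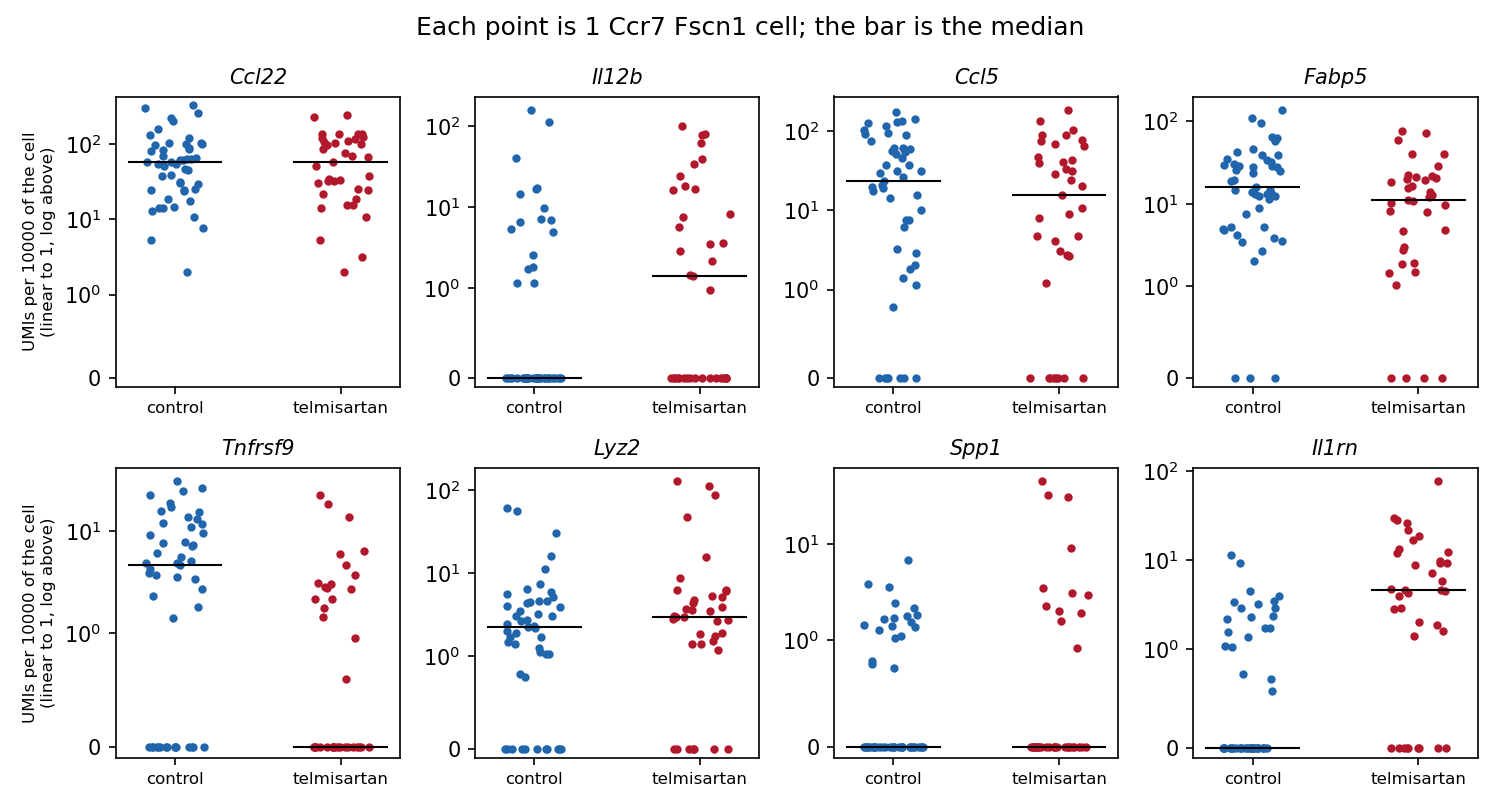
UMIs per 10000 of each *Ccr7* *Fscn1* cell for 8 genes, linear up to 1 and logarithmic above, with 1 point a cell and a bar at the median of each pool (49 control and 37 telmisartan cells). *Ccl22* is found in every cell, *Il12b* in some, *Il1rn* in more telmisartan than control cells, and the high *Lyz2* and *Spp1* values with telmisartan come from few cells.

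Among the members, cells with an *Il12b* UMI differed from cells without one in the same direction in both pools for a set of named genes. There were 17 cells with and 32 without in control (medians of 5580 and 6168 UMIs), and 20 and 17 with telmisartan (6806 and 4490 UMIs). Cells high in *Lyz2* numbered 2 with and 3 without in each pool, but *C1qb*, *C1qc* and *Apoe* differed between the kinds in opposite directions in the pools. *C1qb* was at 498 against 233 CPM in control and 64.0 against 519 with telmisartan for cells with against cells without, *C1qc* at 354 against 129 CPM in control and 44.8 against 582 with telmisartan, and *Apoe* had log2 ratios of 1.48 and -1.66. The part of this in the values below was not tested. This split was chosen after its values had been seen, the cells with *Il12b* were the deeper ones with telmisartan but not in control, and the values are a description. *Bcl2l14*, a gene of the BCL2 family, was higher in the cells with *Il12b*, at 795 against 241 CPM in control and 416 against 41.5 with telmisartan (log2 1.72 and 3.32). *Itga4* was at 1456 against 871 CPM in control and 1158 against 602 with telmisartan, and *Ccl22* at 9208 against 7913 CPM in control and 8695 against 3697 with telmisartan. *Cd200* and *Tbc1d4* were also higher, with log2 ratios of 0.65 and 0.72 for *Cd200* and 0.69 and 0.43 for *Tbc1d4*. Other genes of the maturation list did not follow: *Tnfrsf9* had -0.34 and -0.40, *Socs2* -0.16 and -0.29, *Birc2* -0.18 and -0.44, *Marcksl1* -0.23 and -0.09, *Cacnb3* 0.19 and -0.31 and *Cdkn1a* -0.60 and 0.20.

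On the lower side in both pools stood some genes of interferon, class II and stress, but not all. *Irf1* had log2 ratios of 0.62 in control and 0.13 with telmisartan, and *Hspa5* of 0.54 and 0.62, on the higher side. In cells with *Il12b* against those without, *Cxcl9* was at 134 against 845 CPM in control and 51.2 against 903 with telmisartan. A single control cell without *Il12b* holds 64.3% of the control *Cxcl9* UMIs, and 1 such cell holds 41.9% of the control *Mgl2* UMIs. *Ifitm1* was at 182 against 1198 CPM in control and 173 against 426 with telmisartan, and *Mgl2* at 278 against 677 CPM in control and 76.8 against 312 with telmisartan. *H2-Ab1* had log2 ratios of -0.54 and -0.63 and *Fabp5* of -0.37 and -0.68 in control and with telmisartan. Of the heat shock genes, *Hspa1a* had -0.83 and -1.44 and *Hspa1b* -1.08 and -1.91. Cells with *Il12b* and *Ccl17* together numbered 10 of the 17 cells with *Il12b* in control and 16 of the 20 with telmisartan, while *Ccl17* was found in 34 of 49 and 25 of 37 members as a whole.

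Promoters of the maturation program are shown because its genes stood high together. RefSeq promoters on GRCm38.p6, 250 bases up to a start listed for the gene, were scanned on both strands for the κB consensus, the only motif searched. A listed start can lie inside the gene span given above. The *Ccl22* window reaches into that gene's span, and the *Tnfrsf9* window with the match lies within that gene's span. Of 27025 genes with a promoter 1204 (4.46%) held a match. In the maturation program 2 of 30 matched genes did, *Pdcd1lg2* and *Tnfrsf9*, and 0 of 11 matched genes among the 15 highest and 0 of 9 among the 15 lowest over other dendritic cells. These 2 promoters follow with the match in capitals. In *Tnfrsf9* the capitals cover 2 overlapping matches, and its promoter shown is the second of the 2 starts listed, the other of which holds no match. The promoters of the markers *Ccl22* and *Il12b*, also printed 5′ to 3′, hold no match and so have no capitals. A match or its absence describes these letters in this window only.
Pdcd1lg2 (chr19:29410669-29410918, + strand): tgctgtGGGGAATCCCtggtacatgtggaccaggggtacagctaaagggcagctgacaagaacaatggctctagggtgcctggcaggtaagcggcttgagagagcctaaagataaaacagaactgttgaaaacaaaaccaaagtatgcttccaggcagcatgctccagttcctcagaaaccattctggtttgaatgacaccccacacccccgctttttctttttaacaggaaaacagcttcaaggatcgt
Tnfrsf9 (chr4:150927749-150927998, + strand): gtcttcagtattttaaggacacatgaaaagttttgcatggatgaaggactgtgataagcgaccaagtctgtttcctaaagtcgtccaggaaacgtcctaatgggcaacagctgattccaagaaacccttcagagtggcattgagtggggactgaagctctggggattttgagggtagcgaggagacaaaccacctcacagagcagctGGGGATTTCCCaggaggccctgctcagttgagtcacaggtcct
Ccl22 (chr8:94745434-94745683, + strand): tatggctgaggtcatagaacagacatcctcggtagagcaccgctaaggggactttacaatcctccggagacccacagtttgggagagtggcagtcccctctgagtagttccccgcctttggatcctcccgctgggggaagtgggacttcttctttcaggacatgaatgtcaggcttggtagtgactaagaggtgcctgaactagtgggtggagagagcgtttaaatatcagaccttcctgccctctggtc
Il12b (chr11:44399813-44400062, + strand): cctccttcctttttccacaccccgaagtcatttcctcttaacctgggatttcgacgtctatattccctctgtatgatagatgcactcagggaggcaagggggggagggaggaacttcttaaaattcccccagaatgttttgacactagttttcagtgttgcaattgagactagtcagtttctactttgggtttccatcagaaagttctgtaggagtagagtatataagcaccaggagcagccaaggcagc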

How the data were processed

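Counts are the UMIs per gene and cell that the authors deposited after error correction in the BD Rhapsody WTA Analysis Pipeline, per the file headers, with reads placed on GRCm38. Sample Tag reads per cell were deposited as counts too. Cells were chosen by the rule given above, and UMIs were summed by pool and scaled to CPM. The members and gene lists were chosen with earlier results of these data known. Named genes are the list members, the 12 largest and 12 smallest ratios of telmisartan to control among genes with at least 100 UMIs and an interval off 0, and the 15 highest and 15 lowest against other dendritic cells, ranked on the smaller of the ratios of the 2 pools among genes with at least 100 UMIs. Other genes named were chosen after their values were seen. Alternatives covered the tag, gene, mitochondrial and marker limits, macrophage RNA, depth, scaling and low-count filters, and the limit on *Lyz2* was added after seeing the data. *Ccl19*, *Clec7a* and *Ly6d* are not in the table and were not analysed here, and 2 further genes of the lists are not reported here and were left out of the list values. Python 3.11.15, numpy 2.4.6, scipy 1.17.1, pandas 2.3.3 and edgeR 4.0.16 were used.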

Additional observations from a re-analysis of the deposited data

Results flagged for a closer look

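For 19 of 154 named genes the ratio of telmisartan to control stood on opposite sides of 0 in the *Ccr7* *Fscn1* cells and in C1q macrophages. Neither counting interval of these genes reached 0. The difference was not tested. Of the 154 genes, 81 had an interval off 0 in the *Ccr7* *Fscn1* cells. The share over all genes is not given, so 19 is not read as many or few. Log2 ratios are given for the *Ccr7* *Fscn1* cells first and the macrophages second. Higher in the former and lower in the latter were *Ctss* (0.45, -0.10), *Fcgr2b* (0.66, -0.13), *Fcgr3* (1.23, -0.08), *Fcer1g* (0.60, -0.03), *Gbp2* (0.63, -0.50), *Atf3* (0.79, -0.31), *Btg2* (0.67, -0.57), *Hspa5* (0.69, -0.07), *Lyz2* (1.42, -0.04), *Spp1* (3.58, -0.56) and *Fn1* (0.93, -0.12). Lower in the former and higher in the latter were *Samsn1* (-0.23, 0.24), *Adam8* (-0.38, 0.13), *Cd86* (-0.33, 0.46), *Ndrg1* (-0.65, 0.47), *Gapdh* (-0.19, 0.05), *Gramd1b* (-1.17, 0.21), *Il1r2* (-1.04, 0.29) and *Foxp1* (-0.88, 0.33). Several of these lose their side of 0 under other settings. *Spp1* and *Fn1* do so without the cells high in *Lyz2*, *Fcgr3*, *Fcer1g* and *Fn1* without the deepest 10% of cells, *Fcgr2b* and *Fcgr3* after thinning, and *Gapdh* at the 90% tag limit.

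Another 22 cells meet the rule on *Ccr7*, *Fscn1* and *Cd3* genes but have their tag reads split between the pools, so they entered no comparison. Their *Ccl22* was at 8600 CPM and *Lyz2* at 775 CPM. Whether they are doublets of both pools or single cells with stray tags was not tested.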

How the results depend on the processing

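Over 154 named genes and 17 settings, 2372 of 2618 log2 ratios of telmisartan to control stayed within the counting interval of the first value, 222 moved out of it and 24 reversed, which here means that a ratio with an interval off 0 changed sign. With the others counted, 200 ratios lay on the other side of 0. TMM, median-of-ratios scaling, UMIs per cell, totals without mitochondrial and ribosomal genes, a minimum of 500 genes and no *Cd3* limit left all 154 within their intervals. Against other dendritic cells the percent of genes higher ran from 6.83 to 10 and that of genes lower from 9.78 to 15.5, all within 1.5 times the first value.

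At least 90% of tag reads on 1 tag left 27 and 10 cells and gave shares of 0.673% and 0.271%, a median log2 ratio of -0.0600, and 8.04% of genes higher and 6.09% lower with telmisartan. There *Iscu* -0.0600, *Marcksl1* -0.19, *Ccl17* 0.0869, *Irf1* -0.67, *Hsp90aa1* -0.10, *Gapdh* 0.0558 and *Irf8* -0.19 reversed, and the cause was not tested. Without cells with 3 or more C1q UMIs the shares were 2.39% and 1.57%, and without cells high in *Lyz2* 8.35% and 4.86%, because both settings take macrophages out of the kept cells. The former reversed *Cxcl9* 0.53, *Aldoa* -0.00770 and *Thbs1* -0.51. The latter reversed *Apoe* -0.22, *Spp1* -0.46, *Fn1* -0.39, *Thbs1* -0.63 and *Pdpn* -0.49, and the cause was not tested. Without the deepest 10% of cells *Fcgr3* -0.33, *Fcer1g* -0.0375 and *Fn1* -0.16 reversed, and the cause was not tested.

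Thinning to 2000 UMIs gave a median of -0.0406 and reversed *Socs3* -0.62, *Fcgr2b* -0.0848, *Fcgr3* -0.62 and *Hspa1a* 0.36. The mean over cells gave 3.68% lower and *Hspa1a* at 0.18. Median-of-ratios scaling gave a median of -0.0393. Leaving out the top cell of the gene reversed *Cxcl9* (0.0819). The cause was not tested. With at least 20 UMIs 5.95% were higher and 5.61% lower, with at least 200 the median was -0.0633 and 1.15% were lower, and with 1 UMI in each pool the median was 0.0232, with 12.2% and 12.2%, since other genes are counted.

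Each group is 1 pool of 5 mice, so variation between mice is in no interval. The members are few, their tags are less pure than those of other cells, and stray macrophage RNA and doublets within a pool were not removed. Genes under 50 UMIs were left out of the list counts and, unless a lower limit is given, of the shares of all genes.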
